A study of Mus musculus with 2 samples.

Results

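Genes that restrain bone morphogenetic protein (BMP) signalling were followed through the developing lower jaw of the mouse: the secreted antagonists Nog, Grem1, Chrdl1 and Bmper, the membrane pseudoreceptor Bambi, and the inhibitory SMADs Smad6 and Smad7. They were chosen as a named list. All 7 were listed in both count tables, which held 17775 genes at embryonic day 13.5 (E13.5) and 16236 at embryonic day 11.5 (E11.5). The tissue was the dissected mandibular prominence of wild-type CD1 embryos, with the growing tongue at E13.5 and the tongue bud at E11.5, profiled by droplet-based 10x single-cell RNA sequencing. Each stage was 1 library, with 6318 cells and 67838169 UMIs (unique transcript counts) at E13.5 and 7099 cells and 49913485 UMIs at E11.5. The tissue was digested with 5 mg/ml of protease at E13.5 and 3 mg/ml at E11.5, so stage, library and digestion cannot be told apart, and there was no replicate check. The labels do not say how many embryos went into a library or of which sex.

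BMPs are secreted ligands that bind paired receptors at the cell surface, which phosphorylate SMAD1, SMAD5 and SMAD9. In the face they act in the patterning of the arch, in the growth of skeletal primordia and in tooth and tongue formation. Signalling is limited at 3 levels. Noggin, gremlin 1, the chordin-like protein encoded by Chrdl1 and the protein encoded by Bmper bind the ligands outside the cell, and Bmper is known both to block and to promote signalling. The product of Bambi resembles a receptor without a kinase and occupies the receptor complex. SMAD6 and SMAD7 act inside the cell, SMAD6 mainly on the BMP branch and SMAD7 on the BMP and TGF-beta branches, and both are induced by the signals they restrain.

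RefSeq promoter windows of build GRCm38.p6, from 250 bases before to 50 bases after the start of the gene, were used for 3 of the 7 members, Grem1, Bmper and Smad6. They were searched on both strands for the palindrome GTCTAGAC and for the GC-rich hexamer GGCGCC, 2 motifs known as binding sites of SMAD proteins in vertebrate genes. Each reads the same on both strands. The 2 windows with a match are shown because both genes are known targets of the signal they limit. The motif is in capitals, and each stretch runs 5′ to 3′ towards the start of the gene.
Smad6 (chr9:64022056-64022255, minus strand): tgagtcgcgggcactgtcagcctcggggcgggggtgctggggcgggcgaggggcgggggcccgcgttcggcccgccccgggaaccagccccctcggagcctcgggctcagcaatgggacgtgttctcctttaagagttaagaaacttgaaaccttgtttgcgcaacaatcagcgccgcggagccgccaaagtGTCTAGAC
Grem1 (chr2:113758649-113758848, minus strand): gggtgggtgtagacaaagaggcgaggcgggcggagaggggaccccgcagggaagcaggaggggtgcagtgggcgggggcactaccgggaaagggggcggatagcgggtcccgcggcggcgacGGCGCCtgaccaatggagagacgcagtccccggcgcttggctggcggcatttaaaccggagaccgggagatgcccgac
In Smad6 the palindrome lay across the start, from 4 bases before it to 4 bases after it, and the shown stretch ends with it. In Grem1 the hexamer began 78 bases before the start. The Bmper window held neither motif. Of 32851 RefSeq windows of the same 300 bases, 70 held the palindrome (0.213%) and 3898 held the hexamer (11.9%). These are matches of letters, and no binding was measured.

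Cells were grouped by the deposited cluster numbers, and clusters were joined into tissue classes by the authors' lineage names, checked against marker genes. E11.5 cluster 14 carried no lineage name and was taken as muscle from its markers. The mesenchyme held 3905 cells at E13.5 and 5899 at E11.5, the epithelium 838 and 405, skeletal muscle 752 and 151, and endothelium 137 and 162. Erythroid cells, 207 at E13.5 and 456 at E11.5, served as the class that should lack the 7 genes. The summed markers of each class were higher in every one of its own clusters than in clusters of other classes, with the exception of E13.5 cluster 8. That cluster, 304 shallow cells with mixed markers and a median of 935.5 UMIs, was left unnamed. Its summed mesenchyme markers (235 CPM) passed those of the lowest mesenchyme cluster (198 CPM). Single markers could be absent, as was Pax7 in E13.5 muscle clusters 15 and 19. E13.5 cluster 21, 72 cells of the mesenchyme, had a median of 1833 UMIs and a median mitochondrial share of 14.5%, and E13.5 cluster 16 of the epithelium had 3061 UMIs and 13.8%. In the other E13.5 clusters the median mitochondrial share did not pass 3.92%. The E13.5 library was deposited with cells down to 500 UMIs, against 2253 in the E11.5 library. The libraries shared 71 cell barcodes. Xist RNA, made from the inactive X of female cells, was at 499 CPM in the E13.5 mesenchyme and at 0.0536 CPM in the E11.5 mesenchyme.

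Levels are counts per 1000000 (CPM): the UMIs of a gene summed over the cells of a class or cluster, per 1000000 of all their UMIs. Ranges in brackets are 95% intervals and cover counting error only, as do all intervals here. With 1 library per stage no p-value can be given. A gene was called higher or lower at E13.5 when its level differed by at least 1.5-fold and the interval of the ratio excluded 1, given at least 20 UMIs over both libraries, which is a rule of size and not a test. In the mesenchyme 14139 genes had enough UMIs, of which 27.0% were called higher and 12.2% lower at E13.5. The median log2 ratio of those genes was 0.14.

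In the mesenchyme the secreted antagonists were higher and the pseudoreceptor lower at the later stage. Nog, Grem1, Chrdl1 and Bmper, all 4 of the secreted members, were higher at E13.5, against a background of 27.0% of genes, and Bambi was lower, against 12.2%. Neither inhibitory SMAD was called. All 7 members had enough UMIs in the mesenchyme, and their median log2 ratio was 0.64.

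**Figure D1:**
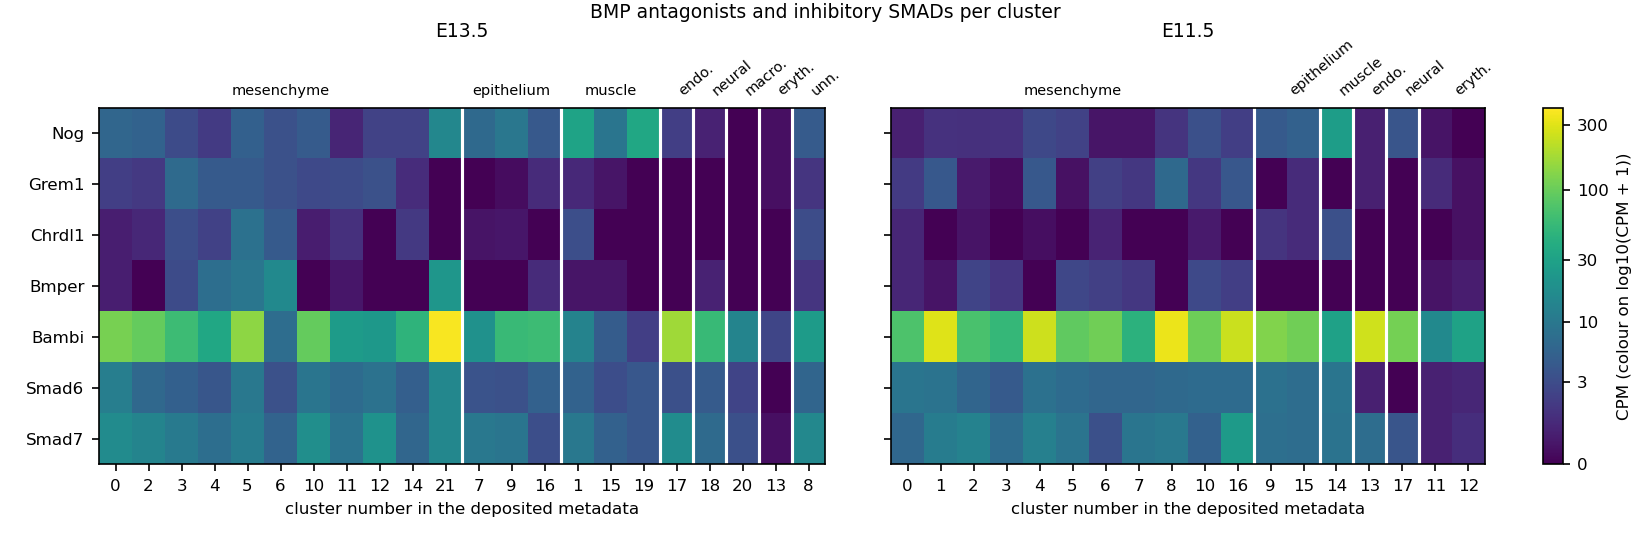
Level of the 7 members (rows) in each deposited cluster (columns, by number), E13.5 in the left panel and E11.5 in the right, with clusters joined by tissue class and the colour showing log10 of CPM + 1. Along its row, Nog is brightest in muscle clusters 19 and 1 at E13.5 and 14 at E11.5, Bmper and Chrdl1 in E13.5 clusters 5 and 6 apart from the shallow cluster 21, and Bambi in E13.5 cluster 21 and E11.5 cluster 8.

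Nog encodes noggin, which binds BMP2, BMP4 and other ligands and keeps them from their receptors. The gene lies on chromosome 11, from 89300638 to 89302332 on the minus strand (GRCm38, as for all positions of genes here), and in the GENCODE annotation no other gene overlaps it or any of the other 6. Its highest levels were in skeletal muscle at both stages. Nog was at 34.5 CPM (26.8 to 43.9) in E13.5 muscle cluster 19, at 31.7 CPM (28.3 to 35.4) in cluster 1 and at 9.35 CPM (5.99 to 13.9) in cluster 15, against 27.4 CPM (20.3 to 36.1) in the only E11.5 muscle cluster, cluster 14. The intervals of E13.5 clusters 19 and 1 overlapped, and cluster 15 lay below both. At E11.5 the intervals of the other 16 clusters with at least 50 cells all ended below that of cluster 14. At E13.5 this held for 19 of the other 21 clusters against cluster 19, and the exceptions were cluster 1 and cluster 21, where Nog rested on 2 UMIs.

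Over the whole muscle class Nog was at 28.2 CPM at E13.5 and 27.4 CPM at E11.5, a log2 ratio of 0.04 (-0.39 to 0.49), and the interval ended short of 1.5-fold on either side. Muscle gave 64.8% of all Nog UMIs at E13.5 and 41.3% at E11.5, from 21.6% and 3.66% of all UMIs and 11.9% and 2.13% of the cells. As deposited, 36.7% of E13.5 muscle cells and 31.1% of E11.5 muscle cells held a Nog UMI. After drawing 2000 UMIs from each cell (thinning) and leaving out shallower cells, so that depths match, the shares were 5.35% (3.85 to 7.21) at E13.5 and 7.95% (4.17 to 13.5) at E11.5. In erythroid cells none of 206 cells at E13.5 and none of 456 cells at E11.5 held a Nog UMI after thinning, which allows shares with such a UMI of up to 1.46% and 0.658% (3 cells of each total). Before thinning 1 erythroid cell of each library held one. Haemoglobin genes gave 88.2% of erythroid UMIs at E13.5 and 65.7% at E11.5. Thinned erythroid cells thus kept fewer UMIs of other genes than thinned muscle or mesenchyme cells, so depths did not match for them.

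In the mesenchyme Nog was at 3.88 CPM at E13.5 (133 UMIs) and 1.45 CPM at E11.5 (54 UMIs), 2.68-fold higher (1.94 to 3.75). In the cells the authors placed in the G1 phase, the log2 ratio was 2.06 in place of 1.42, on 77 UMIs at E13.5 and 10 at E11.5. In the epithelium it was at 7.82 CPM (83 UMIs) and 4.72 CPM (14 UMIs), with a log2 ratio of 0.73 (-0.10 to 1.66) that was not called. It passed the rule when the libraries were scaled by median-of-ratios size factors (0.89) and without the 5% of cells with the most UMIs in each cluster (0.95). Muscle genes were read in the same classes as a measure of muscle RNA found outside muscle cells. Myod1, a master regulator of muscle fate, stood in the E13.5 mesenchyme at 0.917% of its muscle level. Myog, which drives differentiation, stood at 0.915%, the cardiac actin gene Actc1 at 1.08%, Pax7 at 1.78% and Myf5 at 2.02% (1.16 to 3.28). Nog stood at 13.8% (11.2 to 16.8). At E11.5 the 4 muscle markers with enough UMIs stood at 0.502% to 0.677% in the mesenchyme, and Nog at 5.29% (3.53 to 7.93). In the epithelium Nog stood at 27.8% (21.7 to 35.2) of its muscle level at E13.5 and at 17.2% (8.80 to 31.7) at E11.5, and the markers at no more than 2.3% and 1.45%. In both classes and at both stages the percent for Nog was higher than that of every muscle marker drawn.

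**Figure D2:**
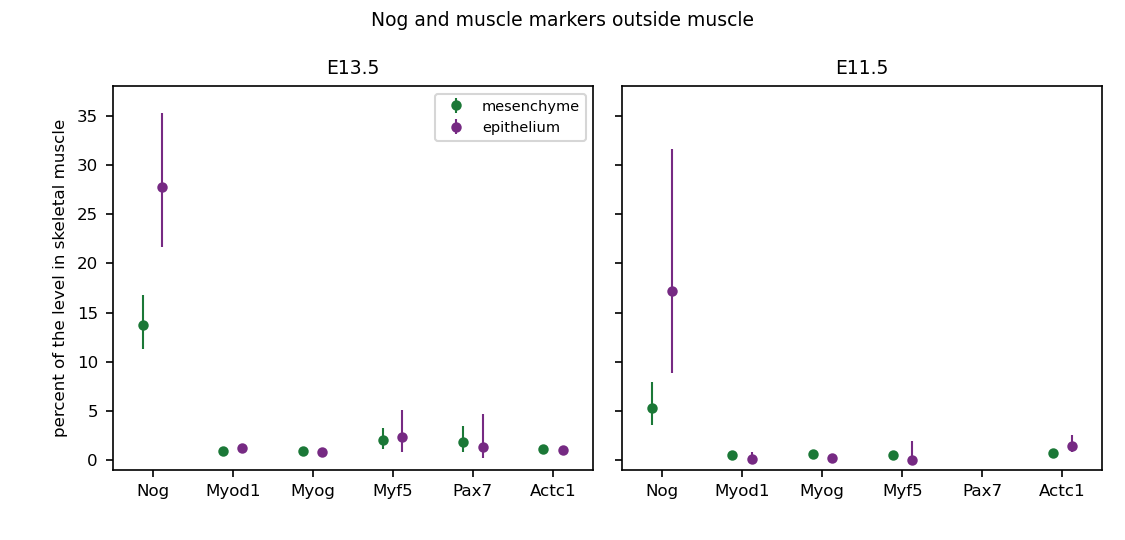
Level of Nog and of muscle marker genes in the mesenchyme and the epithelium as a percent of the level in skeletal muscle of the same library, E13.5 in the left panel and E11.5 in the right, with points for the ratio and bars for its 95% counting interval. Pax7 had fewer than 20 UMIs in E11.5 muscle and is not drawn there. Nog sits at 13.8% and 27.8% at E13.5 and at 5.29% and 17.2% at E11.5, and the markers at 2.3% or less.

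Within the E13.5 mesenchyme most clusters had overlapping Nog intervals. Cluster 0 had 6.26 CPM (4.16 to 9.05), cluster 2 had 5.53 CPM with 3.51 to 8.30, and cluster 5, which the authors named osteogenic progenitors, had 5.35 CPM (3.43 to 7.96). Cluster 4 was below clusters 0, 2 and 5, with 1.80 CPM (0.823 to 3.41), and cluster 11 had 0.848 CPM on 2 UMIs. At E11.5 the mesenchyme clusters ran from 0.417 to 3.27 CPM on 1 to 10 UMIs each, and every interval overlapped that of the highest, cluster 10.

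**Figure D3:**
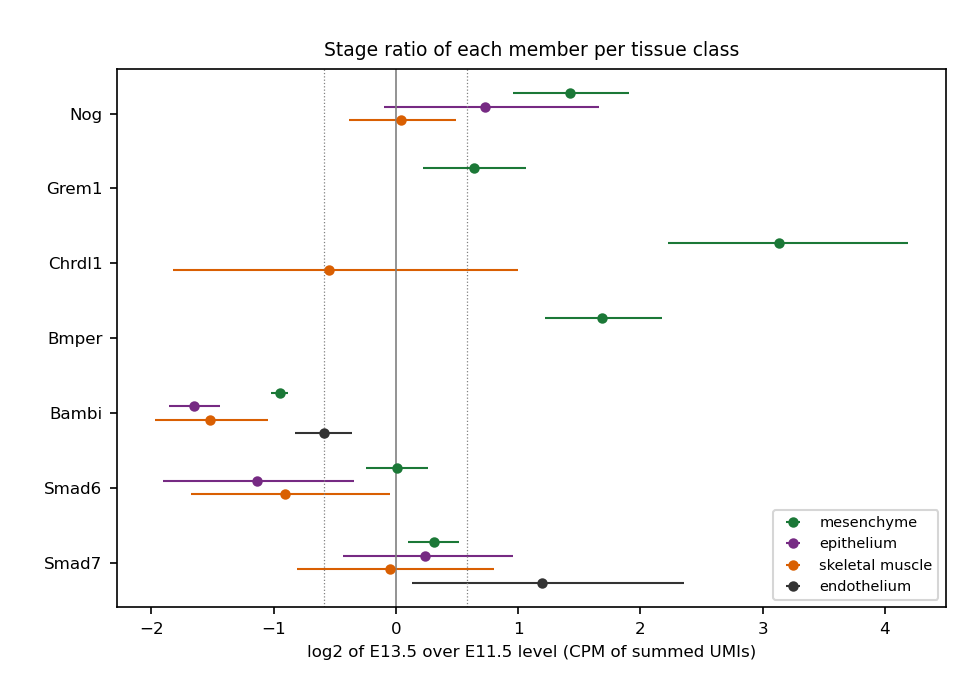
Log2 ratio of the E13.5 over the E11.5 level of each member in each tissue class (colours), with bars for the 95% counting interval and dotted lines at 1.5-fold, drawn where both libraries together held at least 20 UMIs. The 4 secreted antagonists lie right of 0 in the mesenchyme, Bambi lies left of 0 in all 4 classes, and Smad6 lies at 0.01 in the mesenchyme.

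Bmper encodes a secreted protein with chordin-like repeats and lies on chromosome 9, from 23223076 to 23485200 on the plus strand. At E13.5 it was largely a mesenchymal transcript, with 151 of its 159 UMIs in that class, which held 50.6% of all UMIs. At E11.5 the mesenchyme gave 51 of its 54 UMIs from 74.7% of all UMIs, and erythroid cells gave 3. Epithelium, muscle and endothelium had no UMI at E11.5, which allows up to 1.01, 1.64 and 2.07 CPM (3 UMIs of each total). In the mesenchyme Bmper was at 4.40 CPM at E13.5 and 1.37 CPM at E11.5, 3.22-fold higher (2.33 to 4.51). The E13.5 level was uneven. Cluster 6 had 16 CPM (11.9 to 21.1), cluster 5 had 9.58 CPM (6.93 to 12.9) and cluster 4 had 7.79 CPM (5.54 to 10.7), and these clusters gave 32.1%, 27.0% and 24.5% of the Bmper UMIs of the library. Cluster 3 followed with 2.93 CPM (1.46 to 5.24), below all 3. No UMI was found in clusters 2, 10, 12 and 14, which allows up to 0.722, 0.923, 1.72 and 1.71 CPM (3 UMIs of each total). Cluster 21 stood at 22.4 CPM on 3 UMIs, with an interval from 4.61 to 65.4. At E11.5 no such concentration was seen: the highest cluster was cluster 10, the one with the most RNA of Sox9, the regulator of cartilage fate, with 2.73 CPM (0.885 to 6.36), and clusters 4 and 8 had no UMI. The intervals of clusters 4 and 8 ended at 0.969 and 1.79 CPM.

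Chrdl1, a chordin-like antagonist, lies on chromosome X, from 143285674 to 143394262 on the minus strand. It had the largest stage ratio of the 7 members in the mesenchyme, 2.60 CPM at E13.5 (89 UMIs) and 0.295 CPM at E11.5 (11 UMIs), or 8.80-fold (4.69 to 18.3). Erythroid cells at E11.5 had 0.476 CPM over UMIs other than haemoglobin, on 1 UMI. The E11.5 mesenchyme level was thus not set apart from background. At E13.5 Chrdl1 was highest in the osteogenic progenitors, cluster 5, with 8.25 CPM (5.81 to 11.4), and cluster 6 came next with 4.40 CPM (2.41 to 7.39), an overlapping interval. Clusters 3, 4 and 14 had 3.20, 2.20 and 1.71 CPM. Clusters 12 and 21 had none, with intervals that ended at 2.11 and 27.5 CPM, so the zero of cluster 21 says little. At E11.5, 6 of the 11 mesenchyme clusters had no Chrdl1 UMI and the highest, cluster 0, had 0.887 CPM on 5 UMIs. The intervals of those 6 clusters ended at 0.706 to 3.75 CPM. Chrdl1 was also found in muscle. Cluster 1 had 3.25 CPM at E13.5 (2.24 to 4.56) and cluster 14 had 3.29 CPM at E11.5 (1.21 to 7.15), while E13.5 muscle clusters 15 and 19 had no UMI. The intervals of clusters 15 and 19 ended at 1.44 and 1.90 CPM. The muscle class as a whole was not called, with 2.25 CPM at E13.5 and 3.29 CPM at E11.5 and a log2 ratio of -0.55 (-1.82 to 1.0). The libraries differed in Xist RNA, another transcript of the X chromosome. The mesenchymal log2 ratio of Chrdl1 was 3.13 in cells with no Xist UMI, which need not be male, and 3.14 in all cells. It was 2.47 in cells called G1, on 41 UMIs at E13.5 and 4 at E11.5.

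Grem1 encodes gremlin 1, known from the limb as a target and a limiter of BMP signals, and lies on chromosome 2, from 113746164 to 113758646 on the minus strand. It was at 3.47 CPM at E13.5 and 2.23 CPM at E11.5 in the mesenchyme, 1.56-fold higher (1.17 to 2.09). Of the 4 calls this was the one lost under alternatives, namely when the 2 libraries were scaled by size factors (log2 ratio 0.55 in place of 0.64), when the skeletal clusters, E13.5 cluster 5 and E11.5 cluster 10, were left out (0.56), and in the cells the authors placed in G1, where the log2 ratio was 0.0062 (-0.68 to 0.72). At E13.5 cluster 3 was highest, with 6.92 CPM (4.52 to 10.1), and clusters 5, 4, 6 and 12 followed with 4.46, 4.40, 3.46 and 3.44 CPM and overlapping intervals. Clusters 0 and 2 were below cluster 3, with 2.01 CPM (up to 3.82) and 1.68 CPM (up to 3.47). At E11.5 cluster 8 was highest, with 6.80 CPM (3.72 to 11.4), ahead of clusters 1, 4 and 16 with 4.21, 4.20 and 4.07 CPM. Clusters 0, 2, 3 and 5 had 1.77, 0.551, 0.226 and 0.324 CPM, with intervals that ended below 3.72. Outside the mesenchyme Grem1 rested on few UMIs. Muscle had 0.750 CPM on 11 UMIs at E13.5, or 21.6% (10.5 to 40.1) of the mesenchyme level, where mesenchyme markers stood at 4.07% to 6.26%, and no UMI at E11.5. The absence at E11.5 allows up to 1.64 CPM (3 UMIs of the total). Epithelium had 0.189 CPM at E13.5 and 0.337 CPM at E11.5, and erythroid cells had 0.279 CPM on 1 UMI at E13.5 and 0.654 CPM on 4 UMIs at E11.5.

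**Figure D4:**
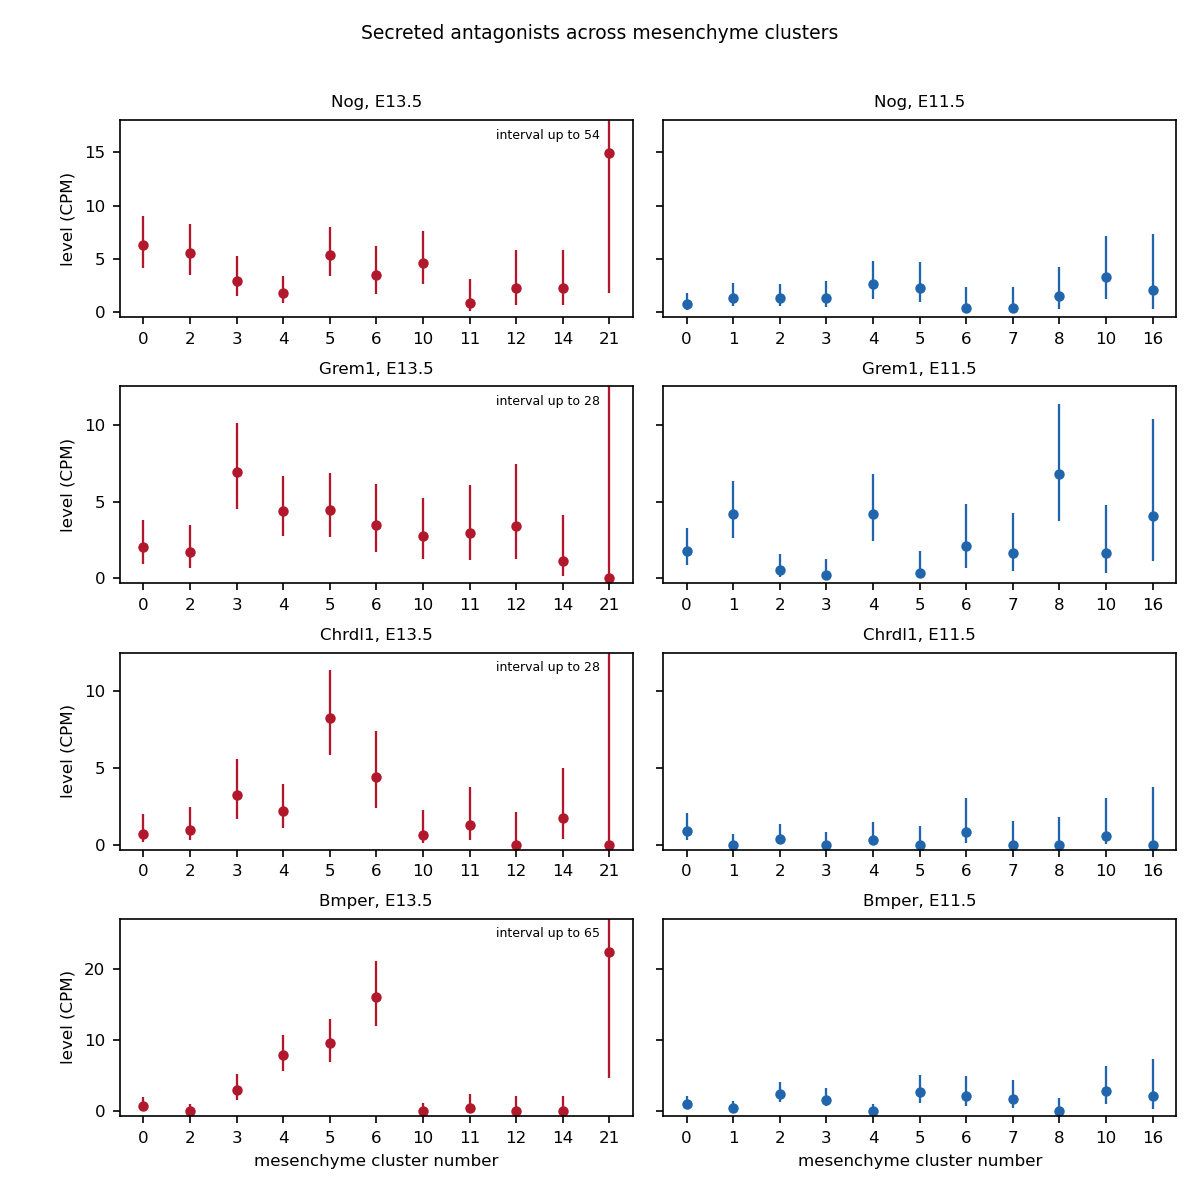
Level of the 4 secreted antagonists (rows) in the 11 mesenchyme clusters of E13.5 (left, red) and of E11.5 (right, blue), in CPM, with bars for the 95% counting interval; the interval of the shallow E13.5 cluster 21 runs past the top of the axis and its upper end is printed. Bmper is highest in E13.5 clusters 6, 5 and 4 apart from cluster 21, Chrdl1 in cluster 5 and Grem1 in E13.5 cluster 3 and E11.5 cluster 8.

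The secreted members were rarely seen together. After thinning, 2.72% (2.23 to 3.28) of E13.5 mesenchyme cells and 1.2% (0.941 to 1.52) of E11.5 mesenchyme cells held a UMI of any of the 4. In erythroid cells, with medians of 18517 UMIs at E13.5 and 13137 at E11.5, the shares were 0.485% and 0.439%. Most of that depth was haemoglobin. Over the other UMIs, erythroid Nog, Grem1, Chrdl1 and Bmper were at 0.476, 1.91, 0.476 and 1.43 CPM at E11.5. These levels rest on 1 to 4 UMIs each. The E11.5 mesenchyme had 1.45, 2.23, 0.295 and 1.37 CPM. At E13.5 the erythroid levels were 2.37, 2.37, 0 and 0 CPM, against 3.88, 3.47, 2.60 and 4.40 CPM in the mesenchyme. The median depth of mesenchyme cells was 8303 and 5895 UMIs. Of the thinned cells, 1 of 3826 at E13.5 and none of 5899 at E11.5 held 2 of them. At this depth such a count does not show that cells make only 1 antagonist.

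Bambi, whose product resembles a receptor but lacks a kinase domain, went the other way. The gene lies on chromosome 18, from 3507923 to 3516404 on the plus strand. Bambi RNA was at 74.2 CPM in the E13.5 mesenchyme (2544 UMIs) and 143 CPM in the E11.5 mesenchyme (5340 UMIs), a log2 ratio of -0.95 (-1.02 to -0.88). In the thinned mesenchyme 11.7% (10.7 to 12.8) of cells held a Bambi UMI at E13.5 and 22% (up to 23.1) at E11.5, and in erythroid cells 0.971% and 3.73% did. Over UMIs other than haemoglobin, erythroid Bambi was at 21.3 CPM at E13.5 and 69.6 CPM at E11.5. Leaving out cluster 21, an alternative chosen after its values were seen, gave a log2 ratio of -0.97.

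Bambi was called lower at E13.5 in all 4 tissue classes. In the epithelium 9.33% of 11677 genes were called higher and 14.2% lower, in muscle 9.38% and 13.7% of 11428, and in endothelium 7.43% and 13.6% of 8586. Epithelial Bambi was at 38.6 CPM at E13.5 and 121 CPM at E11.5, a log2 ratio of -1.65 (-1.86 to -1.44). Within the epithelium E13.5 cluster 7 had 19.9 CPM, below cluster 9 and the shallow cluster 16 with 56.5 and 59.8 CPM, and the E11.5 clusters 9 and 15 had 127 and 108 CPM. Muscle Bambi was at 10.5 CPM at E13.5 and 30.1 CPM at E11.5, a log2 ratio of -1.52 (-1.97 to -1.05). The E13.5 muscle clusters differed, with 13.6 CPM in cluster 1, 4.68 CPM in cluster 15 and 2.06 CPM in cluster 19. The intervals of all of them ended below that of the only E11.5 muscle cluster, cluster 14 (22.7 to 39.2). The part of the cluster makeup in the size of the muscle ratio was not tested. In muscle cells called G1, only 235 at E13.5 and 32 at E11.5, the log2 ratio was -4.16. Endothelial Bambi was at 170 CPM in E13.5 cluster 17 and 256 CPM in E11.5 cluster 13, a log2 ratio of -0.59 (-0.83 to -0.36). Macrophage markers differed between these clusters: 3 of 5 were found in E13.5 cluster 17, at 11.4 CPM in sum and with Csf1r and C1qa at 0, and all 5 in E11.5 cluster 13, at 691 CPM in sum. The summed mast cell markers were at 9.37 and 38.7 CPM. The part of such cells in the endothelial ratios was not tested. The endothelial call sat at the 1.5-fold limit and was lost with size factors (-0.47) and with the E11.5 cell limits, at least 2253 UMIs and a mitochondrial share of at most 7.90%, applied to both libraries (-0.58).

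The level of mesenchyme markers in muscle was also lower at E13.5. Prrx1, Twist1 and Pdgfra, the mesenchyme markers, stood in muscle at 4.07% to 6.26% of their mesenchyme level at E13.5 and at 12.4% to 20% at E11.5. Bambi in muscle stood at 14.2% (up to 16.7) at E13.5 and 21% (15.8 to 27.4) at E11.5 of its mesenchyme level, so at E11.5 the interval reached down to the range of the markers. Their part in the muscle ratio was not tested. In the epithelium Bambi stood at 52.1% and 84.7% of its mesenchyme level, with markers at no more than 7.84% and 18%. Endothelial Bambi was above the mesenchyme level at both stages, at 229% (201 to 261) and 179% (161 to 199). In erythroid cells Bambi stood at 3.38% and 16.7%, against markers at 2.11% to 2.56% and 8.59% to 14.4%.

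Within the mesenchyme Bambi spanned a wide range at both stages. At E13.5 it ran from 7.55 CPM (4.84 to 11.2) in cluster 6 to 144 CPM (133 to 156) in the osteogenic progenitors, and cluster 21 stood at 380 CPM on 51 UMIs (283 to 500). Clusters 0, 2 and 10 had 117, 96.7 and 95.7 CPM, and clusters 4, 11 and 12 had 34.6, 25.9 and 23.5 CPM. At E11.5 clusters 8, 1, 4 and 16 had 337, 297, 253 and 244 CPM, and the other 7 mesenchyme clusters had 45.9 to 107 CPM, with no overlap of intervals between these 4 and the rest.

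Bmp4, the ligand gene whose pattern Bambi is known to follow in the Xenopus embryo, was set beside it. At E11.5 the 4 clusters with the most Bambi were also the 4 with the most Bmp4 RNA, 188, 207, 139 and 156 CPM for clusters 8, 1, 4 and 16, and the other clusters had 10.4 to 83.6 CPM. The same 4 clusters had the most Grem1, but with no clear split from the rest. Cluster 6 came next with 2.09 CPM (0.679 to 4.88), which overlapped all 4, and cluster 16 rested on 4 UMIs. At E13.5 the orders differed. Cluster 6 had 149 CPM of Bmp4, the most after the shallow cluster 21 with 343 CPM, and the least Bambi. Cluster 5 had less Bmp4 (82.5 CPM) and more Bambi than any mesenchyme cluster apart from cluster 21.

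**Figure D5:**
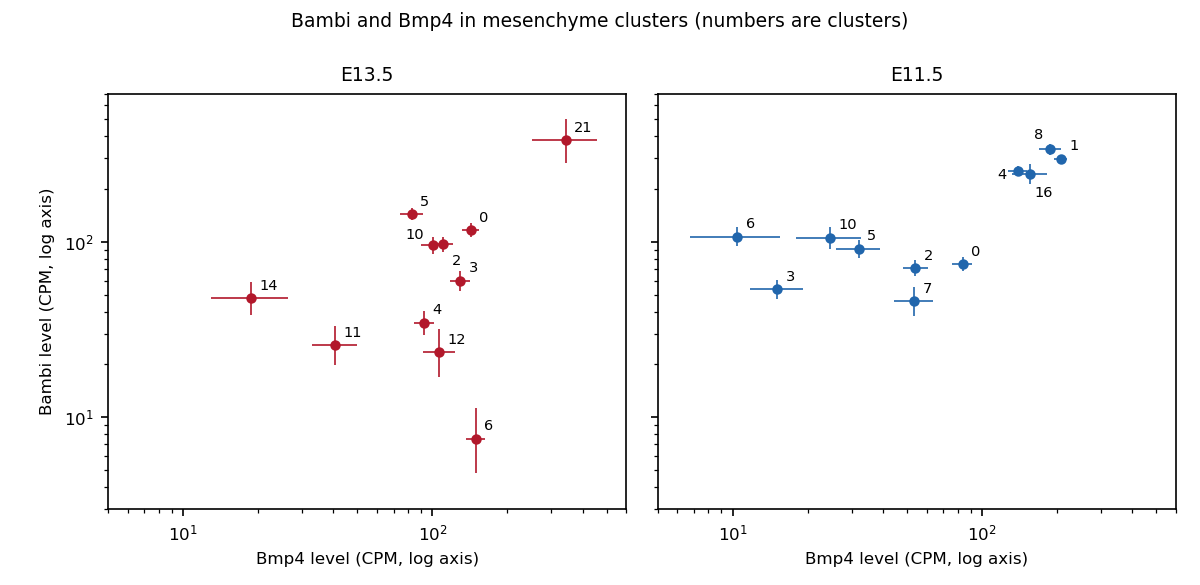
Bambi level against Bmp4 level in the 11 mesenchyme clusters of E13.5 (left) and of E11.5 (right), both in CPM on log axes, with cluster numbers beside the points and bars for 95% counting intervals. At E11.5 clusters 1, 4, 8 and 16 sit apart at the top right, and at E13.5 cluster 6 sits at the bottom with 149 CPM of Bmp4 and 7.55 CPM of Bambi.

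The same relation was looked at cell by cell after thinning. Of E13.5 mesenchyme cells with a Bmp4 UMI, 15.5% (12.8 to 18.5, n = 657 cells) held a Bambi UMI, against 10.9% (9.85 to 12.1) of those without. At E11.5 the shares were 32.6% (29.4 to 36.0, n = 821 cells) and 20.3% (19.2 to 21.5). Cells without Bmp4, weighted to the cluster makeup of the cells with it, held Bambi at 11.9% at E13.5, below the interval of the cells with Bmp4, and at 30.7% at E11.5, inside it. With 1000 UMIs drawn per cell the intervals overlapped at both stages. Bambi was then held by 8.27% (5.76 to 11.4) of cells with Bmp4 and 6.51% of cells without at E13.5. At E11.5 the shares were 15.8% (12.6 to 19.3) and 12.2% (11.3 to 13.1). The weighted shares of cells without Bmp4 were 7.36% at E13.5 and 18.5% at E11.5 with 1000 UMIs. Both lay inside the interval of the cells with Bmp4, and the E11.5 value was above their 15.8%. The weighted E13.5 share thus lay below the interval only at the larger depth. For each of the other 6 members the intervals of cells with and without Bmp4 overlapped at both stages. At 2000 UMIs these members were seen in few cells with Bmp4, from 0 for Chrdl1 and Bmper at E11.5 to 26 for Smad7 at E13.5. With so few cells the overlap cannot show whether their shares differ with Bmp4.

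Smad6 encodes the inhibitory SMAD that acts mainly on BMP receptors and SMAD1, and lies on chromosome 9, from 63953076 to 64022059 on the minus strand. It differed little between the stages in the mesenchyme, with 7.26 CPM at E13.5 (249 UMIs) and 7.21 CPM at E11.5 (269 UMIs), a log2 ratio of 0.01 (-0.24 to 0.26). Its mesenchyme clusters ran from 3.46 to 14.9 CPM at E13.5, the highest being cluster 21 on 2 UMIs, and from 4.51 to 9.22 CPM at E11.5. At E11.5 the interval of every mesenchyme cluster overlapped that of the highest, cluster 0 (6.89 to 12.1). At E13.5 clusters 0, 5 and 10 had 11.9, 10.0 and 9.23 CPM, and clusters 4 and 6 had 4.00 CPM (2.44 to 6.17) and 3.46 CPM (1.73 to 6.19), with intervals that ended below that of cluster 0 (8.88 to 15.5).

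In the epithelium and in muscle Smad6 was called lower at E13.5. It was at 3.68 CPM at E13.5 and 8.09 CPM at E11.5 in the epithelium, a log2 ratio of -1.14 (-1.91 to -0.34), or -1.92 in cells called G1. In muscle it was at 4.98 and 9.31 CPM, a log2 ratio of -0.90 (-1.68 to -0.05). The muscle call was lost with size factors, where the log2 ratio was -0.70 (-1.48 to 0.15), and in cells called G1, with -0.92 (-3.07 to 2.27). Endothelium held 5 Smad6 UMIs at E13.5 and 1 at E11.5, too few for a call. Whether the epithelium and muscle differ from the mesenchyme in their stage ratio was not tested. In the E11.5 epithelium and muscle Smad6 stood at 112% and 129% of its mesenchyme level, above the mesenchyme markers there.

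Smad7 encodes the inhibitory SMAD that recruits ubiquitin ligases to receptors, and lies on chromosome 18, from 75367529 to 75395935 on the plus strand. It was at 12 CPM at E13.5 (411 UMIs) and 9.68 CPM at E11.5 (361 UMIs) in the mesenchyme, 1.24-fold (1.07 to 1.43), under the 1.5-fold limit. In cells called G1 the log2 ratio was 0.64, past the limit, with an interval that excluded 0. In endothelium it was at 17.4 CPM at E13.5 (26 UMIs) and 7.60 CPM at E11.5 (11 UMIs), 2.29-fold higher (1.09 to 5.14), a call that G1 cells alone did not give because the log2 interval widened to -0.27 to 2.96. The summed macrophage markers in these clusters went the other way, with 11.4 CPM at E13.5 and 691 CPM at E11.5, and their part in the Smad7 ratio was not tested. Epithelium had 9.14 and 7.75 CPM and muscle 8.46 and 8.76 CPM, neither called.

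One small E11.5 cluster stood out for Smad7. Cluster 16, of 128 mesenchyme cells, had 25.4 CPM (16.4 to 37.5), and 8 of the other 10 mesenchyme clusters had intervals that ended below 16.4. At E13.5 the highest were clusters 12, 10 and 0 of the mesenchyme, with 20.1, 18.5 and 17 CPM, and the endothelium with 17.4 CPM. Clusters 4, 14 and 6 were the lowest of the mesenchyme, with 7.79, 6.26 and 5.66 CPM. The interval of cluster 11, at 8.90 CPM (5.51 to 13.6), overlapped theirs. Cluster 6 of E13.5 thus had the most Bmper apart from cluster 21, and the least Bambi, Smad6 and Smad7 of the 11 mesenchyme clusters. Its intervals for Smad6 and Smad7 overlapped those of several neighbours in the order.

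The rest of the pathway in the mesenchyme was read from 5 lists with 52 genes, of which 49 had enough UMIs, and 22 were higher and 9 lower at E13.5. Over all genes tested 27.0% were higher and 12.2% lower. Among the other extracellular antagonists 8 of 11 were higher and none lower, with a median log2 ratio of 1.27. Sostdc1, an antagonist best known from teeth, was at 231 CPM at E13.5 and 47.1 CPM at E11.5, Fst, which encodes follistatin, at 44.8 and 12.3 CPM, and Chrd, which encodes chordin, at 4.14 and 1.39 CPM. Dand5, Fstl1, Fstl3 and the protease gene Htra1 were among the others that were higher, and Twsg1 was at 25.4 and 25.5 CPM.

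Of 9 ligands 6 were higher: Bmp2, Bmp3, Bmp5, Bmp7, Gdf6 and Gdf10. Bmp2 was at 15.5 CPM at E13.5 and 6.09 CPM at E11.5. Gdf11 was lower, and Bmp4 was not called, with 104 and 88.0 CPM. Of 10 receptors and coreceptors Acvr1, Acvr2a, Acvrl1, Eng and Rgmb were higher and Acvr2b and Bmpr1b lower, and the type I receptor gene Bmpr1a was at 44.8 and 38.6 CPM. Among 9 signalling SMADs and other brakes Ski was higher and Skil lower, and 7 were not called, among them Smad1 with 26.7 and 26.8 CPM and Smad4 with 20.6 and 16.3 CPM. Of 10 genes known as BMP targets, Id4 and the osteoblast regulator Sp7 were higher, and Dlx5, Hand1, Msx1, Msx2 and Runx2 were lower. Msx2 was at 15.9 CPM at E13.5 and 71.7 CPM at E11.5, and Id1 was not called, with 163 and 132 CPM.

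Genes whose levels ran most like those of each member were found over the 39 clusters of both libraries with at least 50 cells, by Pearson's r of log2(CPM + 1) among 12854 genes with at least 100 UMIs. The clusters share 2 libraries and differ in depth, so these values are a description with no test. Nog ran most like Hspb1 (r = 0.78), Tceal7 (0.76) and Myod1 (0.75), the last a muscle marker. Bambi ran most like Gja1 (0.83), which encodes connexin 43, Raet1e (0.80) and Mpzl1 (0.80). Grem1 had Gm15222 (0.72) and Fgf2 (0.72) among its 3. Chrdl1 had Pde1a (0.77), Gucy1a3 (0.70) and Mtus2 (0.69), and Bmper had Saa1 (0.75), Tiam2 (0.72) and Itga11 (0.71). Smad6 had Endov, Fam109a and Itfg2 (each 0.87), and Smad7 had Hif1a (0.83), Dab2ip (0.83) and Wbscr16 (0.82).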

How the data were processed

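Droplet-based (10x) single-cell RNA sequencing was made of dissected mandibular tissue, with 1 library at E13.5 and 1 at E11.5. Per the submitters' processing notes, Cell Ranger 2.0.0, Seurat 2.3.4 and the mm10 build were used. The authors deposited UMI counts per gene and cell, with no normalization, and the summed counts of every cell equalled its deposited total. The mitochondrial share of each cell was deposited as a fraction. The authors' cell cycle scores were deposited too, and the phase calls made with them were used. Cells were grouped by the authors' cluster numbers and lineage names. Which cell filters the authors applied, and whether doublets had been taken out, is not stated in the labels; every deposited cell was kept, possible doublets included.

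UMIs were summed per class or cluster, divided by all UMIs and given as counts per 1000000 (CPM), with exact Poisson intervals. Ratios carry exact conditional binomial intervals and shares Clopper-Pearson intervals, all at 95% and for counting error only. PCR and sampling of cells are not covered. Shares were taken after thinning each cell to 2000 UMIs and leaving out shallower cells. A gene counted as measured if the libraries together held 20 UMIs or more, and as called at 1.5-fold with an interval that excluded 1. Against a count of 0, no fold was given. The steps were tested on simulated data.

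The members and the pathway lists were chosen with earlier results of these data known. Named besides the members were the called genes of the lists, at most 2 uncalled genes per list, and the 3 genes most like each member. A few genes that this rule covers are not reported here. Promoters came from RefSeq (GRCm38.p6) and positions from GENCODE. The computation used scipy 1.17.1 and pandas 2.3.3 on numpy 2.4.6 (Python 3.11.15), and matplotlib 3.10.9 for plots. Alternatives changed the scaling, the cells kept, the weight of deep cells, the clusters and phases included and the thinning depth.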

Additional observations from a re-analysis of the deposited data

How the results depend on the processing

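Of 128 log2 ratios recomputed under alternatives, 115 stayed within the counting interval of the reported ratio and no called ratio changed sign. For Bambi in the mesenchyme (-0.95) the ratio was -1.04 with size factors, -0.82 as a mean over cells, -1.19 without the skeletal clusters (E13.5 cluster 5 and E11.5 cluster 10), -0.86 in G1 cells and -0.85 without the cluster with the highest CPM in each library. In G1 cells the mesenchyme ratio was 2.06 for Nog (1.42 in all cells), 0.0062 for Grem1 (0.64), 1.14 for Bmper (1.69) and 0.64 for Smad7 (0.31). At E11.5 these G1 levels rested on 10, 28, 16 and 73 UMIs. The cause of the shifts in G1 cells was not tested. Leaving out E13.5 cluster 21 or the cluster with the highest CPM was chosen after seeing the data. Pathway lists gave 21 to 22 higher and 9 to 10 lower genes under 3 alternatives. All 28 cluster levels recomputed stayed within their intervals, and 32 of 42 shares moved with the thinning depth. The shift that size factors take off every log2 ratio was 0.094 in the mesenchyme, -0.16 in the epithelium, -0.20 in muscle and -0.12 in the endothelium. The secreted members rest on 22 to 637 UMIs per library, which limits any order of their clusters. No paired analysis was possible because each stage has 1 library.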

Other observations

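Beyond the 4 main classes, Bambi was at 55.7 CPM (43.7 to 70.1) in E13.5 cluster 18, which the authors named neurogenic, and at 113 CPM (75.5 to 162) in E11.5 cluster 17, of 26 cells. In cluster 18 the summed neuron markers were at 755 CPM and the Schwann cell and glia markers at 718 CPM, and in cluster 17 they were at 77.7 and 750 CPM. Bambi was at 13.9 CPM in E13.5 cluster 20, which the authors named mast cells, with macrophage markers at 6923 CPM and mast cell markers at 523 CPM in sum. In the unnamed E13.5 cluster 8, Smad7 stood at 15.3 CPM on 10 UMIs and Nog at 4.58 CPM on 3 UMIs.

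Bambi UMIs were unevenly spread over cells. Of 838 E13.5 epithelial cells 71 held at least 2 Bambi UMIs with a highest count of 30, and of 405 E11.5 epithelial cells 85 held at least 2, with a highest count of 11. In the mesenchyme 549 of 3905 cells at E13.5 and 1278 of 5899 cells at E11.5 held at least 2.

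By the authors' phase calls, mesenchymal Bambi at E13.5 was at 84 CPM in G1 (79.7 to 88.5), 73.5 CPM in S (67.9 to 79.4) and 55.8 CPM in G2M (50.9 to 61.0), so the 3 intervals did not overlap. At E11.5 it was at 153 CPM in G1, 151 CPM in S and 133 CPM in G2M (128 to 139), and the intervals of G1 and S overlapped. Smad7 at E13.5 was at 12.4 CPM in G1, 8.95 CPM in S and 14.1 CPM in G2M. G1 held 2225 of 3905 mesenchyme cells at E13.5 and 1870 of 5899 at E11.5.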
